A study of Mus musculus with 6 samples.

Results

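The genes described here are 9 transcripts of endothelial cell-cell junctions, Cldn5, Ocln, Tjp1, Cdh5, Pecam1, Esam, F11r, Jam2 and Cgn, among 23494 genes counted in any of the deposited tables. They were chosen by name, as components of tight and adherens junctions, by a rule that uses no measured value. Earlier results of these data were known when they were chosen. All 9 were in the tables of the naïve cells (19679 genes) and of the NG2 line (22833 genes). In the table of the Tbx18 line (21008 genes) 8 of them were found, and Cgn was not analysed there. For each gene the unique molecular identifiers (UMIs, 1 per captured transcript) were added up over all cells that a cluster had in a library, and its level is given as CPM, its counts scaled to a total of 1e6 UMIs of those cells.

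Cells were collected from the cerebral cortex of mice 3 to 4 months old that carried a tamoxifen-inducible Cre, either NG2-CreERT2 or Tbx18-CreERT2, together with the Ai14 reporter, so that cells with a history of the driver gene express the red protein tdTomato (tdT). Tamoxifen was given to both lines 7 days before injury, and naïve mice received it too. Each line gave 3 libraries: naïve cortex without injury, cortex 3 days after an intracerebral saline injection (physical injury), and cortex 3 days after an injection of ET-1 and L-NAME, which constrict vessels and cause a local stroke (ischemic injury). Living tdT+ cells were sorted from several pooled animals and profiled by droplet single-cell RNA sequencing. The Cre lines label cells by promoter activity at the time of tamoxifen, and NG2 is known from pericytes, smooth muscle and oligodendrocyte precursors and Tbx18 from mural cells, so an endothelial cell in these libraries is a cell that passed the tdT gate and not a sample of all brain endothelium. Each group was 1 library without a replicate, so the conditions were not tested against each other and p-values are left out. The intervals printed are 95% exact intervals. They cover counting error only and leave out any variation from animal to animal or sort to sort.

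Endothelial cells of brain capillaries are sealed to each other by tight junctions, in which claudins and occludin span the membranes of neighbouring cells and the ZO scaffolds anchor them to actin. Beside these lie adherens junctions built on VE-cadherin, and adhesion molecules of the immunoglobulin family. This seal is a main part of the blood-brain barrier, and its opening after stroke lets plasma proteins and blood cells into the tissue.

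Claudin-5, encoded by Cldn5 (chr16:18776847-18778262, plus strand, mm10), is the main claudin of brain endothelium. Occludin, encoded by Ocln (chr13:100496507-100552718, minus strand), spans the membrane at the same strands. F11r (chr1:171437535-171464603, plus strand) encodes JAM-A and Jam2 (chr16:84774123-84825928, plus strand) encodes JAM-B, both immunoglobulin-like proteins of tight junctions. Tjp1 (chr7:65296165-65527781, minus strand) encodes the scaffold ZO-1, and Cgn (chr3:94760069-94786492, minus strand) encodes cingulin, which binds ZO proteins. Cdh5 (chr8:104101625-104144511, plus strand) encodes VE-cadherin, the cadherin of endothelial adherens junctions. Pecam1 (chr11:106654217-106750628, minus strand) encodes CD31 and Esam (chr9:37528078-37538319, plus strand) an endothelial adhesion molecule of the immunoglobulin family. These positions are from GENCODE M21. The antisense gene Gm29682 overlaps Cdh5, 3 predicted genes overlap Tjp1 and 1 small RNA gene lies in Jam2, and whether reads of these were kept apart was not tested.

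Promoter sequences from RefSeq (GRCm38.p6) were matched for 5 of the 9 genes, and those of 3 are shown because the results turn on them: Cldn5, which gave the most UMIs of the 9 in the endothelial clusters, Ocln, which was lower after ischemic injury in NG2-tdT+ endothelial cells, and Tjp1, which was abundant in pericytes too. Each is the 250 bases before a RefSeq transcript start, written 5′ to 3′ on the strand of the gene. Capitals mark GGAA or its reverse complement TTCC, the core letters bound by ETS factors, a family with known regulators of endothelial genes, and CCGCCC or its reverse complement GGGCGG, the GC box bound by Sp factors. The windows lie at chr16:18776597-18776846 for Cldn5, chr13:100552719-100552968 for Ocln and chr7:65371245-65371494 for Tjp1. Those of Cldn5 and Ocln lie directly before the start of the gene in GENCODE. The Tjp1 window lies inside the gene, whose 5′ end in GENCODE is at 65527781, and so belongs to an internal start.
Cldn5: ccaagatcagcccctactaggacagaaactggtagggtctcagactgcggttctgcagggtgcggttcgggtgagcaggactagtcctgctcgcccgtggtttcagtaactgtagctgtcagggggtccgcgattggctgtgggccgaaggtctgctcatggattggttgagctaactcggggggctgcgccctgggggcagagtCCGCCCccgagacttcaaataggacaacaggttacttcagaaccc
Ocln: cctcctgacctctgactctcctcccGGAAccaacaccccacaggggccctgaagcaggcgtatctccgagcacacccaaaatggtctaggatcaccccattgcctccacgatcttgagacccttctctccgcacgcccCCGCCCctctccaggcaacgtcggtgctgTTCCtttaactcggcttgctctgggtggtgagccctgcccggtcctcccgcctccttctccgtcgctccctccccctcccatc
Tjp1: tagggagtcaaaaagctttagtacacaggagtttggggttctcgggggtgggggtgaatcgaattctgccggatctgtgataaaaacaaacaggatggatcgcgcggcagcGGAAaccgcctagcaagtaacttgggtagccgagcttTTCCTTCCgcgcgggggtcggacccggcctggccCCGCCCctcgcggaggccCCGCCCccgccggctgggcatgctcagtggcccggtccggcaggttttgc
The Cldn5 window held no GGAA and 1 GC box. The Ocln window held 2 GGAA and 1 GC box (that of another RefSeq start of Ocln, not printed, held 1 of each), and the Tjp1 window 3 GGAA and 2 GC boxes. Of 32807 promoter windows of the same length, 93.4% held GGAA and 32.7% held the GC box on either strand, so GGAA is in most windows, the Cldn5 window is among the few without it, and the GC box, which all 3 windows held, is in a minority of windows. The match is a description of letters and says nothing of binding, and the counts, taken at the 3′ ends of transcripts, do not show which start was used.

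The 6 libraries held 686 to 4306 cells and 3153996 to 54276245 UMIs, with median depths of 2806 to 9232 UMIs per cell, lowest in the Tbx18-tdT+ naïve library. Any pair of libraries shared 0 to 5 cell barcodes. The endothelial clusters are cluster 5 of the NG2 line, with 101 naïve, 404 physical injury and 453 ischemic injury cells, and cluster 0 of the Tbx18 line, with 159, 1788 and 1488 cells. They made up 2.35%, 15.8% and 12.6% of NG2-tdT+ cells and 23.2%, 46.5% and 72.7% of Tbx18-tdT+ cells. These are shares of the sorted cells, and why they differ was not tested. All 16 endothelial markers outside the junction genes, Flt1, Kdr and Tie1 among them, were detected in each of the 6, and their summed level was 23455 to 31062 CPM.

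Other transcripts in these clusters differed between libraries. The 8 pericyte markers, all detected in each library, summed to 5475, 3726 and 3312 CPM in naïve, physical injury and ischemic injury NG2-tdT+ endothelial cells, and to 3915, 359 and 105 CPM in the Tbx18 line. The 4 hemoglobin genes summed to 701, 8820 and 10312 CPM in the NG2 line and to 35.1, 4140 and 4142 CPM in the Tbx18 line. The naïve endothelial cells of the Tbx18 line were also mixed in depth: of the 159 cells, 63 fell into cluster 10 and 19 into cluster 13 when the authors clustered the naïve libraries alone, and 68 fell into naïve cluster 6 with a median of 1522.5 UMIs. That cluster carried the pericyte list at 15781 CPM beside the endothelial list at 8284 CPM in its Tbx18-tdT+ cells. All 101 naïve endothelial cells of the NG2 line were in naïve clusters 10 (68 cells) and 13 (33 cells). Ratios of a member to naïve Tbx18-tdT+ endothelial cells, and their medians, are therefore given with all 159 cells and with the 82 in naïve clusters 10 and 13. Levels, shares of cells and UMIs and values of other junction genes in this cluster are from all 159 cells alone.

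Cldn5 was abundant in the endothelial cluster of every library. In NG2-tdT+ endothelial cells it was at 4212 CPM (4055 to 4375) in naïve cortex, 4520 CPM (4452 to 4589) after physical injury and 5062 CPM (4998 to 5127) after ischemic injury. In Tbx18-tdT+ endothelial cells it was at 3070 CPM (2945 to 3199), 4889 CPM (4850 to 4929) and 4939 CPM (4903 to 4976). The naïve library was the lowest in both lines, and the naïve Tbx18-tdT+ library was the lowest of the 6. In the NG2 line the ischemic injury level was 1.20 times the naïve level (1.15 to 1.25), a log2 ratio of 0.27. In the Tbx18 line the level was 1.59 times the naïve level after physical injury (1.53 to 1.66) and 1.61 times after ischemic injury (1.54 to 1.68), log2 ratios of 0.67 and 0.69. With the 82 naïve cells of clusters 10 and 13 alone, whose Cldn5 was at 3426 CPM, these became 1.43 times (1.37 to 1.49) and 1.44 times (1.38 to 1.51). Ischemic and physical injury differed in the Tbx18 line by a log2 ratio of 0.01, with an interval that included 0.

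Ocln had the lowest ratio of ischemic injury to naïve of the members in the NG2 line. Its level there was 281 CPM (241 to 325) in naïve cells, 266 CPM (249.4 to 283) after physical injury and 182 CPM (170 to 195) after ischemic injury. The ischemic library stood below the other two, whose intervals overlapped. The ratio of ischemic injury to naïve was 0.650 (0.553 to 0.768), a log2 ratio of -0.62, and that of ischemic to physical injury was 0.686 (0.626 to 0.753), a log2 ratio of -0.54. In the Tbx18 line Ocln was at 222 CPM (190 to 259), 270 CPM (261 to 279) and 268 CPM (259 to 276), and the ischemic library was not below the naïve. The Tbx18 log2 ratio of ischemic injury to naïve was 0.27 (0.04 to 0.50) with all naïve cells and 0.09 with the 82, an interval that then included 0. Relative to claudin-5 transcripts, the NG2-tdT+ endothelial cells held 6.66, 5.88 and 3.60 Ocln UMIs per 100 Cldn5 UMIs, and the Tbx18-tdT+ cells 7.25, 5.52 and 5.42. The pericyte and hemoglobin levels given above differ between the same NG2-tdT+ libraries. Without cells that held 3 or more UMIs of 5 pericyte genes, the NG2 log2 ratio of ischemic injury to naïve was -0.63, and the part of the hemoglobin transcripts was not tested.

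Of the JAM genes F11r had the fewer counts, and its ratios had the widest intervals of the members compared. F11r, which encodes JAM-A, was at 69.0 CPM (50.1 to 92.6), 99.2 CPM (89.3 to 110) and 73.6 CPM (66.1 to 81.7) in naïve, physical injury and ischemic injury NG2-tdT+ endothelial cells, from 44 UMIs in the naïve library. In Tbx18-tdT+ endothelial cells it was at 78.2 CPM (59.4 to 101), 94.95 CPM (89.6 to 101) and 103 CPM (97.6 to 108). The naïve interval overlapped those of both injuries in each line. The interval of the ratio to naïve left out 1 for physical injury in the NG2 line, at 1.44 times (1.05 to 2.01), and for ischemic injury in the Tbx18 line, at 1.31 times (1.01 to 1.74). From the 82 naïve Tbx18-tdT+ cells, with F11r at 88.6 CPM, the latter was 1.16 times (0.887 to 1.55). Jam2, which encodes JAM-B, was at 285, 262 and 247 CPM in the NG2 line and at 279, 296 and 306 CPM in the Tbx18 line. None of the 6 Jam2 ratios between conditions within a line had an interval that left out 1. The Tbx18 log2 ratios to naïve were 0.09 after physical and 0.13 after ischemic injury from all 159 naïve cells, and -0.13 and -0.08 from the 82, whose Jam2 was at 324 CPM.

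The scaffold Tjp1 was at 798 CPM (730 to 870), 911 CPM (881 to 943) and 758 CPM (733 to 783) in NG2-tdT+ endothelial cells. It was at 1077 CPM (1004 to 1155), 992 CPM (975 to 1010) and 1073 CPM (1056 to 1091) in Tbx18-tdT+ endothelial cells. The physical injury library was the highest of the 3 in the NG2 line and the lowest of the 3 in the Tbx18 line, with log2 ratios to naïve of 0.19 and -0.12. The Tbx18 value was -0.21 with the 82 naïve cells and turned to 0.019 with the mean over cells of their own CPM, so its direction depends on how the cells are weighted. Cgn had 0 UMIs in the endothelial cluster of every NG2-tdT+ library, which allows levels of up to 4.703 CPM in naïve, 0.813 CPM in physical injury and 0.633 CPM in ischemic injury cells at 3 counts. Its relative Cgnl1, which encodes paracingulin, was at 226 to 305 CPM in these 3 clusters.

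Cdh5 was higher after ischemic than after physical injury in both lines, at 1.22 times (1.15 to 1.30) in the NG2 line and 1.13 times (1.09 to 1.17) in the Tbx18 line. It was at 516 CPM (462 to 575), 437 CPM (416 to 459) and 534 CPM (513 to 555) in the NG2 line, with physical injury the lowest at 0.847 times the naïve level (0.752 to 0.956). In the Tbx18 line it was at 442 CPM (396 to 493), 477 CPM (465 to 489) and 540 CPM (528 to 552), with ischemic injury at 1.22 times naïve (1.09 to 1.37) from all cells and 1.06 times (0.9503 to 1.19) from the 82 naïve cells. Pecam1 was at 563, 626 and 674 CPM in the NG2 line and at 534, 711 and 742 CPM in the Tbx18 line, in both lines lowest in the naïve library. Esam was at 519, 576 and 658 CPM and at 484, 630 and 636 CPM, in the same order of libraries. The ratios of ischemic injury to naïve were 1.20 (1.07 to 1.34) and 1.39 (1.26 to 1.54) for Pecam1 and 1.27 (1.13 to 1.43) and 1.31 (1.18 to 1.46) for Esam, in the NG2 and the Tbx18 line. From the 82 naïve Tbx18-tdT+ cells they were 1.22 (1.10 to 1.35) for Pecam1 and 1.21 (1.08 to 1.36) for Esam, and the intervals still left out 1.

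**Figure D1:**
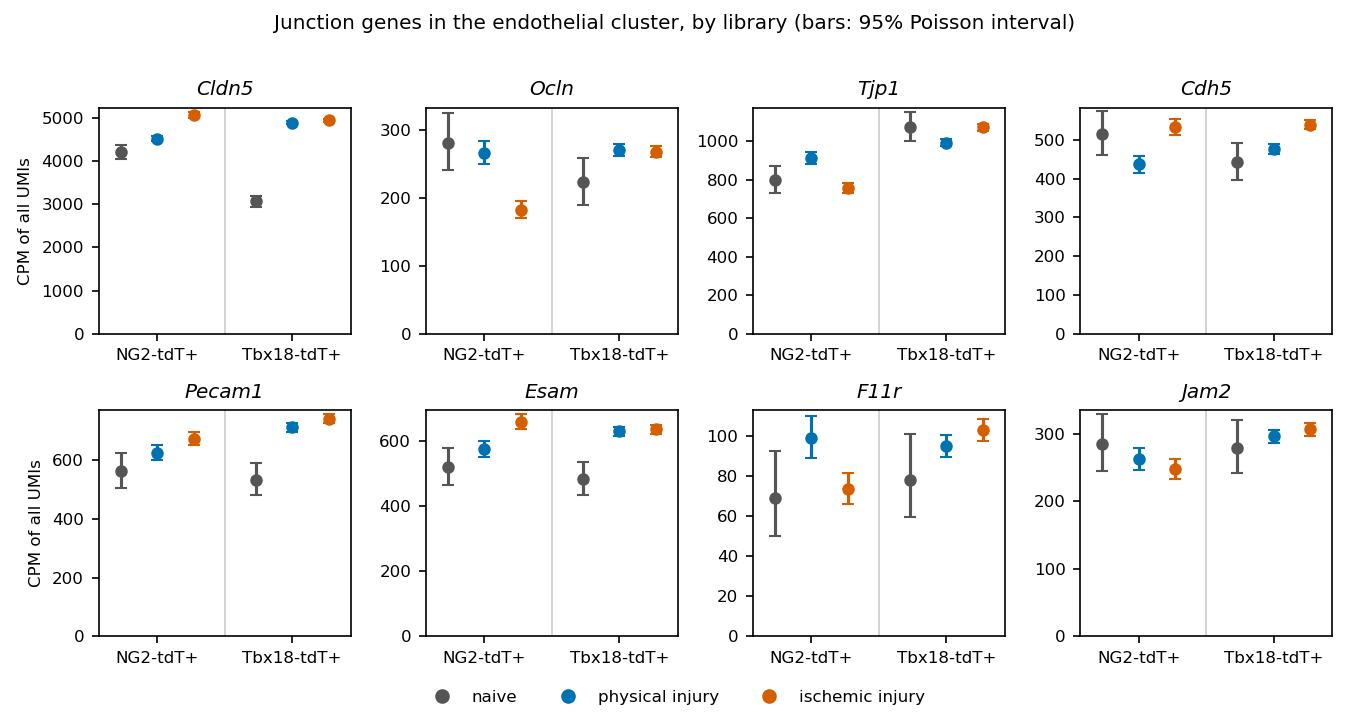
Level of 8 junction genes in the endothelial cluster of each library, in CPM of all UMIs of its cells on axes that start at 0, with bars for the 95% Poisson interval of the count. Ocln is lowest in NG2-tdT+ ischemic injury cells, at 182 CPM, and Cldn5 is lowest in Tbx18-tdT+ naïve cells, at 3070 CPM.

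**Figure D2:**
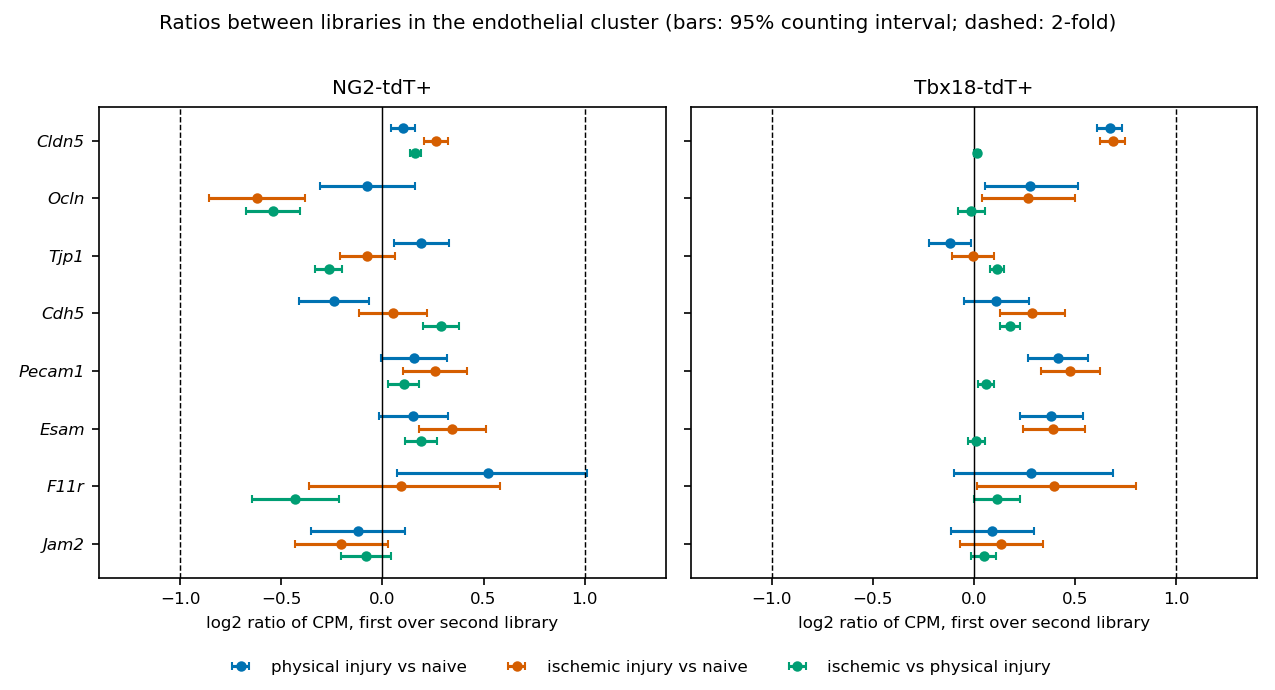
Log2 ratio of CPM between libraries of a line for the 8 genes, with 95% counting intervals and dashed lines at a 2-fold difference. The points lie between -0.62 for Ocln and 0.69 for Cldn5, inside the dashed lines.

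A gene was called past a fold when it had at least 50 CPM in the higher library and at least 10 UMIs. By this rule 8 of the 9 members could be compared in each contrast, and Cgn could not. None of the 8 was past 2-fold, in either direction, in any of the 7 contrasts. The share of all genes past 2-fold was 2.71% of 4201 for physical injury against naïve, 3.75% of 4155 for ischemic injury against naïve and 1.44% of 4036 for ischemic against physical injury in the NG2 line. In the Tbx18 line it was 5.15% of 4194, 5.57% of 4198 and 0.23% of 3915. With shares this small, 0 of 8 is near the background, and 8 genes could not show a departure from it. At 1.5-fold, Ocln was called lower in NG2-tdT+ ischemic injury against naïve, where 7.39% of genes were called lower, and Cldn5 was called higher in Tbx18-tdT+ physical and ischemic injury against naïve, where 6.27% and 6.53% were called higher. Both Cldn5 calls were lost with the 82 naïve cells (1.43 and 1.44 times) and without cells with 3 or more UMIs of 5 pericyte genes (log2 ratios of 0.57 and 0.58). These single calls among 8 genes are near the background shares too. The median log2 ratio of the 8 members was 0.13, 0.07 and 0.01 in the 3 NG2 contrasts and 0.28, 0.34 and 0.05 in the 3 Tbx18 contrasts, against medians over all genes of -0.03, -0.04 and -0.03, and of -0.02, -0.02 and -9.43e-05. From the 82 naïve Tbx18-tdT+ cells the 2 medians against naïve were 0.10 and 0.15. The contrasts of each injury against naïve share the naïve library, so their values are not independent of each other.

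The naïve libraries of both lines were compared in naïve cluster 10, with 68 NG2-tdT+ and 63 Tbx18-tdT+ cells. Tjp1 was at 876 CPM in NG2-tdT+ and 1223 CPM in Tbx18-tdT+ cells, 1.397 times higher in the latter (1.22 to 1.61). Cldn5 was at 4320 and 3804 CPM, a ratio of 0.881 (0.823 to 0.943), and Ocln at 347 and 268 CPM, a ratio of 0.773 (0.599 to 0.997). F11r was at 55.6 and 92.2 CPM from 21 and 42 UMIs, past 1.5-fold with an interval of 0.961 to 2.95 that included 1. Over the alternatives the F11r log2 ratio ranged from 0.18, between the endothelial clusters of each line, to 1.04, with the mean over cells, and 3 of 8 alternatives were short of 1.5-fold. Cdh5, Pecam1, Esam and Jam2 also had intervals that included 1. No member was past 2-fold, where 14.9% of 4506 genes were, and 20% of genes were past 1.5-fold higher in the Tbx18 line. The pericyte list summed to 6886 CPM in the NG2-tdT+ and 1766 CPM in the Tbx18-tdT+ cells of this cluster. Leaving out cells with 3 or more UMIs of 5 pericyte genes, which kept 43 and 52 cells, was among the 8 alternatives. Over these the log2 ratio ranged from 0.43 to 0.64 for Tjp1, -0.46 to -0.16 for Cldn5 and -0.57 to -0.16 for Ocln. Those of Cdh5, Pecam1, Esam and Jam2 changed sign. The part of the remaining pericyte transcripts was not tested.

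Naïve clusters 10 and 13 both carried all 16 endothelial markers in NG2-tdT+ cells, and they differed in vessel type markers. The 6 capillary markers summed to 6518 CPM in cluster 10 and 1755 CPM in cluster 13, and the 6 arterial markers to 55.6 and 2217 CPM. In Tbx18-tdT+ cells, of which cluster 13 held 19, Car4, a capillary marker, was at 696 CPM in cluster 10 and 12.1 CPM in cluster 13, and Gkn3, an arterial marker, at 13.2 and 568 CPM. The clusters were formed on expression, which includes these genes, so the differences between them are a description. Cdh5 was higher in cluster 13 in both lines, at 623 against 442 CPM in NG2-tdT+ cells, 1.41 times (1.13 to 1.76), and at 647 against 457 CPM in Tbx18-tdT+ cells, 1.42 times (1.11 to 1.80). Tjp1 and Esam were lower there in both lines, with Tjp1 at 685 against 876 CPM and 937 against 1223 CPM, and Esam at 439 against 574 CPM and 411 against 567 CPM. Ocln was at 185 against 347 CPM in NG2-tdT+ cells, 0.533 times (0.375 to 0.747), and at 205 against 268 CPM in Tbx18-tdT+ cells, with an interval that included 1. Cldn5 was lower in cluster 13 of the Tbx18 line, at 2387 against 3804 CPM, while its interval in the NG2 line, 4056 against 4320 CPM, included 1. For Pecam1, F11r and Jam2 the intervals included 1 in both lines. In the NG2-tdT+ endothelial cluster of the injured libraries the arterial list was at 799 CPM after physical and 409 CPM after ischemic injury, beside 936 CPM in naïve cells.

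**Figure D3:**
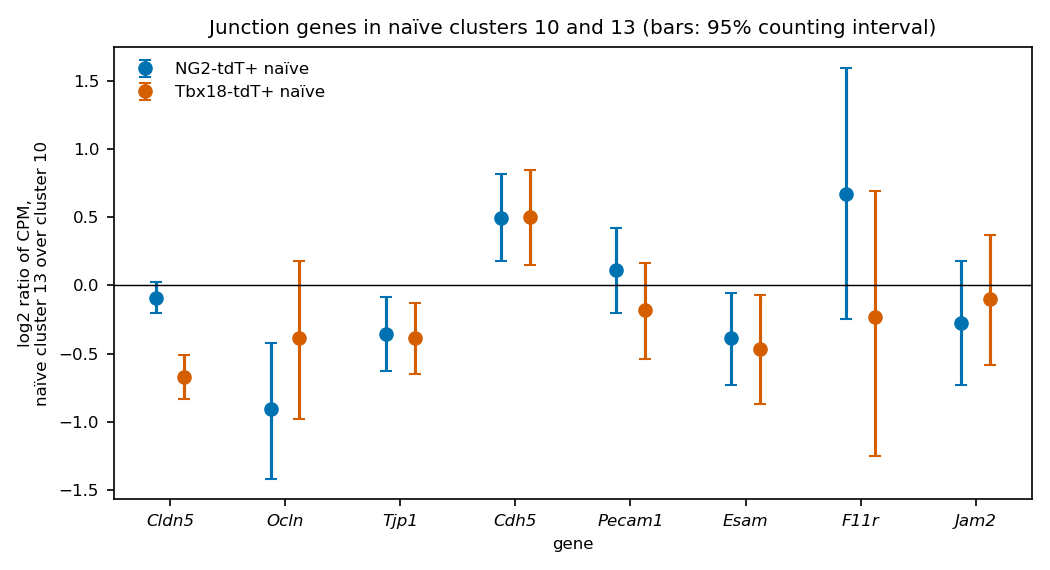
Log2 ratio of the CPM of 8 junction genes in naïve cluster 13 over naïve cluster 10, for NG2-tdT+ cells (33 and 68) and Tbx18-tdT+ cells (19 and 63), with 95% counting intervals. Cdh5 lies above 0 in both lines, at 0.50 in each, and Tjp1 and Esam lie below 0 in both.

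Depth differs between the libraries, so the share of cells with a UMI was compared after each cell was thinned to 1000 UMIs. Cldn5 was found in 96.0%, 97.01% and 97.1% of thinned NG2-tdT+ endothelial cells and in 81.0%, 97.2% and 97.4% of thinned Tbx18-tdT+ endothelial cells. Without thinning the shares were 100%, 99.5% and 99.8%, and 86.2%, 98.8% and 99.7%. In cluster 1 of the NG2 line, pericytes that should lack claudin-5, the thinned share was 0 of 1056 cells (at most 0.349%), 0.34% and 0.79%, at median depths of 3054.5, 3843.5 and 2984 UMIs beside 5720, 7522.5 and 8622 UMIs in the endothelial cluster. Ocln was found in 24.0%, 22.2% and 16.5% of thinned NG2-tdT+ endothelial cells and in 16.8%, 22.5% and 22.9% of thinned Tbx18-tdT+ endothelial cells, against at most 0.39% in NG2 pericytes of cluster 1. The unthinned Ocln shares were 75.2%, 82.4% and 79.0% in the NG2 line and 44.7%, 75.5% and 84.1% in the Tbx18 line. The ischemic NG2 library was thus the lowest of its line in the thinned share and in CPM but not in the unthinned share. Its thinned share, from 448 cells beside 100 naïve and 401 physical injury cells, had an interval that overlapped those of both other libraries. Per cell, the thinned NG2-tdT+ endothelial cells held a mean of 3.23, 3.32 and 3.28 of the 9 members, and the Tbx18-tdT+ cells 2.52, 3.41 and 3.55 of 8. Cells with 4 or more members were 38%, 42.4% and 42.2% in the NG2 line and 22.6%, 47.0% and 50.1% in the Tbx18 line. The naïve Tbx18-tdT+ library stood apart in both measures, and 22 of its 159 cells were too shallow to be thinned.

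Among the UMIs of all members, Cldn5 gave the largest share in the endothelial clusters, with 58.2%, 58.7% and 61.8% in the NG2 line and 49.6%, 58.5% and 57.4% in the Tbx18 line. Tjp1 gave 11.02%, 11.8% and 9.26%, and 17.4%, 11.9% and 12.5%. Ocln gave 3.87%, 3.45% and 2.23%, and 3.60%, 3.23% and 3.11%. These shares compare 1 gene between libraries, and they do not rank the genes, since the yield of UMIs per transcript is not known for each.

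Outside the endothelial clusters the members parted into those held almost wholly by endothelial cells and those shared with other cells. Expression that includes these genes formed the clusters, so levels and shares set side by side between clusters are a description. Cdh5 and Cldn5 were nearly confined to cluster 5 in the NG2 line, which held 99.7%, 98.7% and 97.5% of all Cdh5 UMIs and 99.3%, 98.6% and 98.1% of all Cldn5 UMIs of the naïve, physical injury and ischemic injury libraries. Pecam1 followed with 94.2%, 97.7% and 94.97%, and Ocln with 74.0%, 94.6% and 90.9%. Tjp1 and Esam were spread over other cells, with 4.92%, 31.6% and 21.4% of Tjp1 UMIs and 4.73%, 41.0% and 47.1% of Esam UMIs in cluster 5. That cluster held 3.15%, 14.96% and 8.74% of all UMIs of these libraries. In the Tbx18 line cluster 0 held 89.9%, 98.2% and 99.1% of Cldn5 UMIs and 36.6%, 82.1% and 96.8% of Tjp1 UMIs, beside 23.5%, 40.8% and 69.4% of all UMIs. Cgn was counted only 3, 11 and 27 times in the NG2 libraries, never in cluster 5, and in cluster 6, the oligodendrocyte precursor cells (OPCs), it was at 1.76 CPM from 1 UMI, 2.38 CPM from 9 and 1.27 CPM from 5, with intervals that overlapped those of other clusters in each library.

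**Figure D4:**
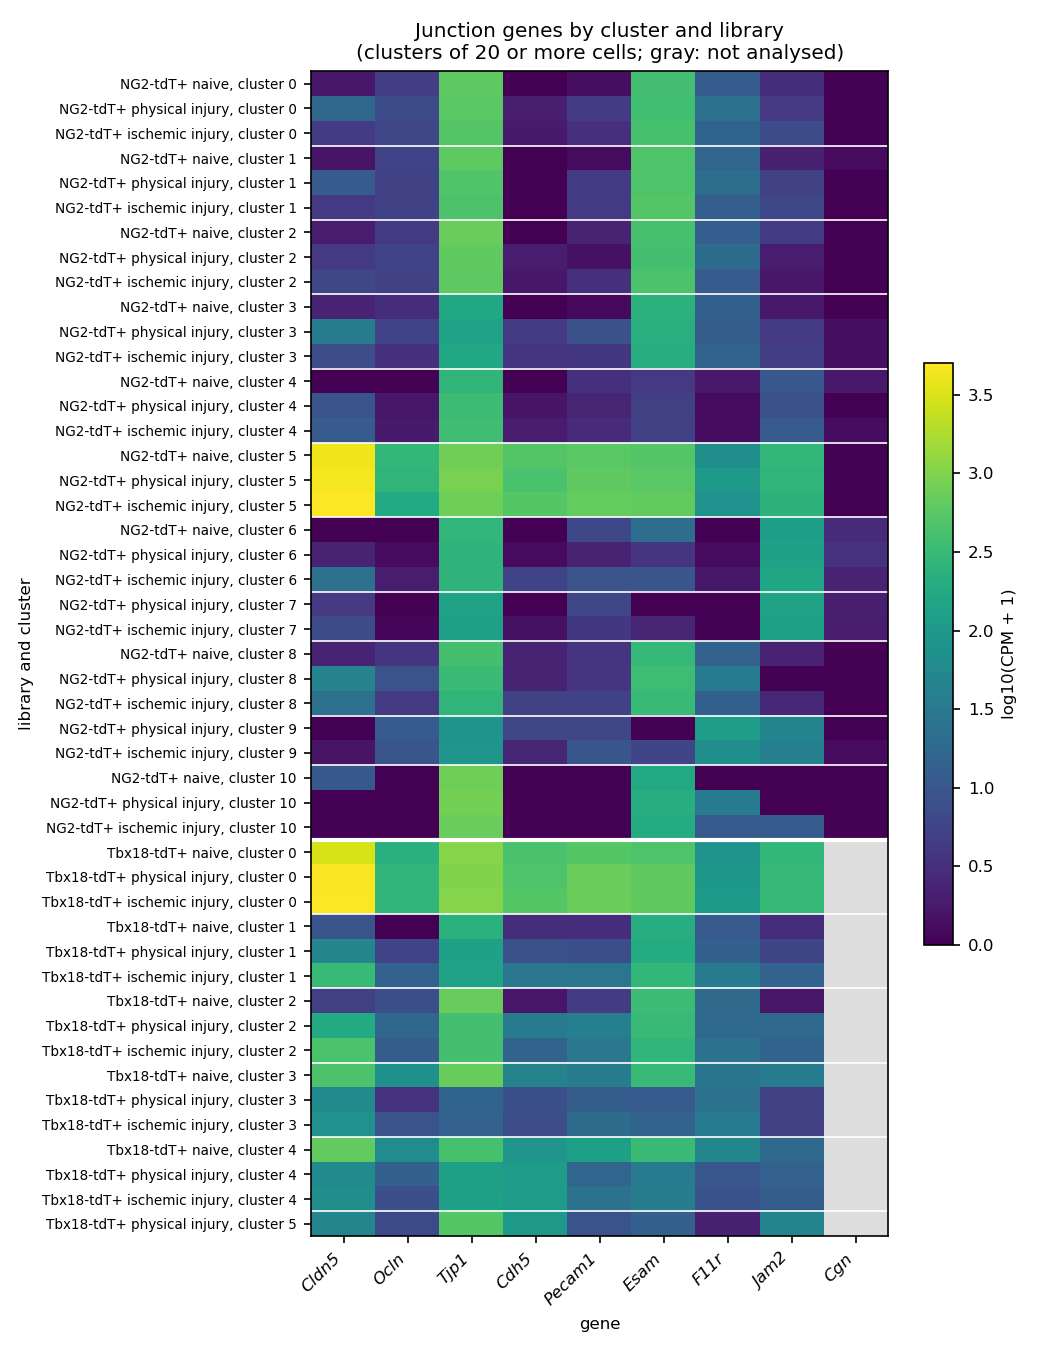
Level of each junction gene in every cluster and library with 20 or more cells, as log10 of CPM plus 1 in colour, with gray where a gene was not analysed. Cluster 5 of the NG2 line and cluster 0 of the Tbx18 line are bright in 8 genes, and Tjp1 and Esam are bright in the pericyte clusters 0, 1 and 2 of the NG2 line as well.

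Tjp1 and Esam were high in pericytes too. In clusters 0, 1 and 2 of the NG2 line, which the study names as activated or canonical pericytes, Tjp1 was at 472 to 731 CPM and Esam at 383 to 516 CPM over the 3 libraries. Cluster 10, also pericytes in the study, had Tjp1 at 712 to 854 CPM, with intervals that overlapped those of endothelial cluster 5 in each library. Esam in naïve NG2-tdT+ cells was at 519 CPM in cluster 5 and 479 CPM in cluster 1, again with overlapping intervals, and after both injuries the endothelial level was higher. In cluster 2 of the Tbx18 line, canonical pericytes, Tjp1 was at 695, 407 and 411 CPM and Esam at 350, 315 and 272 CPM. Smooth muscle cells of the NG2 line (cluster 3) had Tjp1 at 138 to 164 CPM and Esam at 199 to 242 CPM. Mature oligodendrocytes (cluster 4) had Tjp1 at 267 to 368 CPM and Esam at 3.06 to 4.04 CPM. Of the member UMIs in pericyte cluster 1, Tjp1 gave 54.9%, 48.1% and 46.5% and Esam 43.1%, 47.7% and 50.8%, while Cldn5 gave 0.05%, 1.05% and 0.32%.

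Jam2 and F11r had other sources. Jam2 was at 113, 129 and 150 CPM in OPCs and at 136 and 129 CPM after physical and ischemic injury in cluster 7 of the NG2 line, the radial glia-like precursors of the study, below the endothelial level in each library. The endothelial cluster held 62.1%, 57.4% and 28.8% of the Jam2 UMIs of the NG2 libraries, and 94.1% to 98.9% of those of the Tbx18 libraries, in which cluster 6, the glial precursors of the study, held 14 cells or fewer. F11r was at 120 CPM (93.4 to 152) after physical and 69.8 CPM (61.4 to 79.0) after ischemic injury in microglia, cluster 9 of the NG2 line, where the endothelial levels were 99.2 and 73.6 CPM with overlapping intervals. In microglia of the Tbx18 line (cluster 3) F11r was at 23.6 and 31.5 CPM, well below the endothelial 94.95 and 103 CPM. Pericytes and smooth muscle cells of the naïve NG2-tdT+ library (clusters 0 to 3) had F11r at 10.9 to 15.3 CPM. The endothelial cluster held 15.7%, 60.7% and 47.5% of the F11r UMIs of the NG2 libraries. In the Tbx18 libraries it held 53.7%, 81.7% and 90.3%.

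In the clusters given here, most Cldn5 UMIs outside the endothelial clusters after injury lay in few cells, while more cells held a few UMIs. In cluster 2 of the Tbx18 line it was at 4.03 CPM in naïve, 183 CPM in physical injury and 446 CPM in ischemic injury cells. In the physical injury library 31 of 433 cells had a UMI, and 9 cells with 10 or more UMIs held 230 of the 271. In the ischemic injury library 10 of 86 cells had a UMI, and 3 cells held 145 of the 157. The 6 UMIs of the naïve library lay in 6 of 226 cells. In smooth muscle cells of the Tbx18 line (cluster 1) 84 of 827 cells had a UMI after physical injury, and 9 cells held 317 of 407 UMIs. After ischemic injury 1 cell held 69 of 71. In microglia of that line (cluster 3) 53 of 318 cells had a UMI after physical and 44 of 265 after ischemic injury. There 5 cells held 166 of 225 UMIs and 5 cells held 264 of 307. In mature oligodendrocytes of the NG2 line 4 cells held 164 of 181 UMIs after ischemic injury. By contrast, no naïve NG2-tdT+ cell outside cluster 5 held more than 1 Cldn5 UMI. Droplets with 2 cells were not sought, and whether these few are such droplets, or cells placed in another cluster, was not tested.

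The naïve Tbx18-tdT+ cells of clusters 3 and 4 showed another pattern. In cluster 4 of this library Cldn5 was at 656 CPM, with 191 UMIs in 95 of 157 cells and no cell above 7, and in cluster 3 at 461 CPM, with 52 UMIs in 26 of 76 cells. After thinning to 1000 UMIs, 43.4% of cells of cluster 4 and 36.0% of cluster 3 had Cldn5, against 0.45% in the pericytes of cluster 2 in the same library. Their median depths were 1724 and 1117.5 UMIs, beside 6547.5 UMIs in cluster 2. Cluster 4 carried the pericyte list at 16100 CPM and the endothelial list at 6591 CPM in naïve cells, all 8 and all 16 markers detected.

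After injury cluster 4 of the Tbx18 line, the vascular-genic pericytes of the study, did not show the pericyte markers. The 8 pericyte markers summed to 133 CPM after physical injury and 26.1 CPM after ischemic injury, against 16100 CPM in the naïve cells of the cluster, with Abcc9 at 0 after both injuries and Kcnj8 and Higd1b also at 0 after ischemic injury. In these injured cells Cdh5 was at 105 CPM (93.6 to 118) and 107 CPM (89.7 to 126), while Cldn5 was at 58.9 and 69.9 CPM. Naïve cells of the cluster had Cdh5 at 85.8 CPM already, from 25 UMIs in 23 of 157 cells, and Cldn5 at 656 CPM. The injured cells held 179 and 153 Cdh5 UMIs per 100 Cldn5 UMIs. This ratio was 13.1 in the naïve cells of the cluster and 9.66 to 14.4 in the 6 endothelial clusters. Cdh5 was also at 98.0 CPM (78.3 to 121) in cluster 5 after physical injury, the fibroblasts of the study, with Cldn5 at 47.3 CPM and Tjp1 at 542 CPM. In the other clusters of the injured Tbx18-tdT+ libraries with 20 or more cells, endothelial cluster 0 left out, Cdh5 was at 6.53 to 31.7 CPM.

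The Cdh5 UMIs of cluster 4 were spread over many cells. Of its cells, 131 of 349 had a Cdh5 UMI after physical injury (37.5%, or 8.61% after thinning) and 56 of 143 after ischemic injury (39.2%, or 9.29%). In smooth muscle cells and microglia of the same libraries the thinned share was 0% to 0.846%. The spread was not particular to cluster 4. In cluster 5, the fibroblasts, 46 of 116 cells had a Cdh5 UMI after physical injury without thinning (39.7%). The cells with a Cdh5 UMI were deeper, with medians of 9796 against 4719 UMIs and 12138.5 against 5143 UMIs, so that depth enters the split. Genes were compared in CPM between cells with and without Cdh5, and were picked after their values were seen. Cldn11, which encodes the claudin of myelin, was at 235 against 138 CPM after physical and 298 against 73.3 CPM after ischemic injury. Cdh1, which encodes the epithelial cadherin, was at 112 against 67.4 CPM and 116 against 5.11 CPM. Cdh11, a cadherin of mesenchymal cells, was at 366 against 145 CPM and 314 against 128 CPM. Junction genes of endothelium were higher in the cells with Cdh5 too. Cldn5 was at 92.4 against 24.0 CPM after physical injury, a log2 ratio of 1.95 (1.38 to 2.55), and at 116 against 13.6 CPM after ischemic injury, a log2 ratio of 3.09 (2.04 to 4.35). These Cldn5 UMIs lay in few cells, which the intervals do not cover. In the cluster, 5 cells held 124 of 161 after physical injury, and 1 cell held 74 of 91 after ischemic injury. Without thinning, Cldn5 was found in 14.5% against 5.96% of cells and in 17.9% against 9.20%. Esam was at 46.6 against 20.2 CPM and 55.9 against 11.9 CPM, with intervals that left out 1. Its UMIs lay in few cells too, which these intervals do not cover: 18 cells of the cluster held 79.3% after physical and 8 cells 72.3% after ischemic injury. Pecam1 was at 25.1 against 5.24 CPM after physical injury, with an interval that left out 1. After ischemic injury Pecam1 was at 28.0 against 17.0 CPM, with an interval that included 1. The spread of Pecam1 over cells was not examined. The endothelial receptor Kdr was at 11.5 against 5.24 CPM and 9.78 against 3.41 CPM, with intervals of the ratio that included 1. Flt1, another endothelial receptor, was at 49.4 against 55.4 CPM and 33.5 against 20.5 CPM, also with intervals that included 1. Not all genes compared were higher in the cells with Cdh5. Col1a1, a collagen gene of fibroblasts, was at 519 against 309 CPM after physical injury but at 836 against 2375 CPM after ischemic injury. In cluster 5 after physical injury Cdh1 was at 0 UMIs in cells with and without Cdh5, and Dcn, which encodes the fibroblast proteoglycan decorin, was at 5329 and 5712 CPM. Endothelial genes were higher there in the cells with Cdh5, with Flt1 at 180 against 18.4 CPM, Kdr at 32.4 against 2.30 CPM and Cldn5 at 80.9 against 13.8 CPM. Their intervals left out 1, while those of Esam, Jam2, Ocln, Tek and Tjp1 included it. Flt1 was found in 10.9% against 7.14% of these cells, and 1 cell held 28 of the 41 Cldn5 UMIs.

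**Figure D5:**
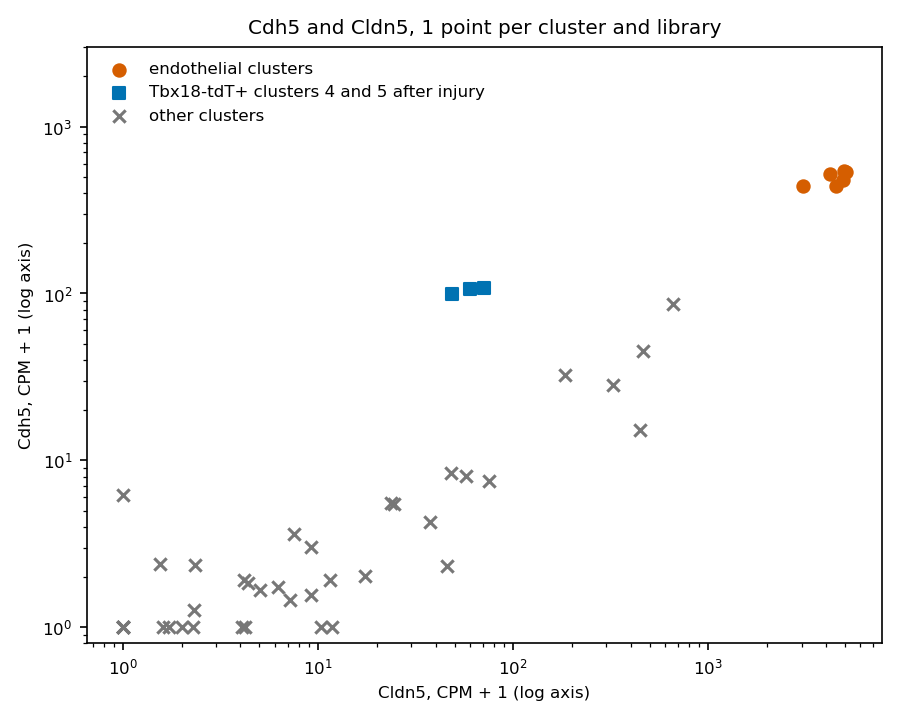
Cdh5 against Cldn5, both as CPM plus 1 on log axes, with 1 point for each cluster and library of the NG2 and Tbx18 lines with 20 or more cells. The 6 endothelial clusters lie at the upper right, and clusters 4 and 5 of the injured Tbx18-tdT+ libraries lie at 98.0 to 107 CPM of Cdh5 with 47.3 to 69.9 CPM of Cldn5.

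Of a list of 40 other junction genes, 19 to 21 had enough counts in the endothelial clusters to be compared. In the NG2 line 1 of 21 was past 2-fold against naïve, where 2.17% of all genes were past it higher, Magi1, a scaffold with guanylate kinase and PDZ domains, at 87.8 CPM in naïve and 184 CPM in ischemic injury cells, a log2 ratio of 1.07 (0.68 to 1.48). In the Tbx18 line none was past 2-fold between conditions. Between the naïve lines 4 genes were higher in Tbx18-tdT+ cells of naïve cluster 10, of 21 compared, namely Ildr2, a protein of tricellular contacts, Cd99l2, a CD99-like adhesion molecule, and the scaffolds Magi3 and Pard3. Mcam, which encodes the adhesion molecule CD146, was lower, at 2.20 CPM from 1 UMI against 58.2 CPM. In the NG2 line Mcam was highest in smooth muscle cells (cluster 3), at 569 CPM in the naïve library. The pericyte list was also higher in the NG2-tdT+ cells of naïve cluster 10, as given above. The part of mural transcripts in the Mcam difference was not tested. Of all genes 7.9% were past 2-fold higher and 7.01% lower in this comparison. The medians of the log2 ratios over the list were 0.12, 0.15 and -0.06 in the NG2 contrasts, -0.28, -0.19 and 0.13 in the Tbx18 contrasts and 0.34 between the naïve lines.

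Several genes of that list had their highest level in the endothelial cluster of each line, which does not show that they are confined to it. Ptprb, the phosphatase VE-PTP that acts on VE-cadherin, was at 1630, 1492 and 1397 CPM in NG2-tdT+ and at 1557, 1589 and 1776 CPM in Tbx18-tdT+ endothelial cells. Lsr, the lipoprotein receptor of tricellular contacts, was at 231 to 305 CPM and Ctnnb1, which encodes β-catenin, at 470 to 566 CPM over the 6 clusters. The claudin genes other than Cldn5 in the list, Cldn1, Cldn3, Cldn10, Cldn11 and Cldn12, were at most at 20.2 CPM in any of them. Cldn11 was highest in mature oligodendrocytes, at 3684 CPM after ischemic injury, and Jam3, which encodes JAM-C, was highest there too, at 429 CPM. The gap junction genes Gja4 and Gjc1 were highest in mural clusters of the NG2 line, Gja4 at 561 CPM in pericytes of cluster 1 and Gjc1 at 1426 CPM in cluster 8, the mesenchymal-like pericytes of the study. Plvap, which encodes a protein of leaky fenestrated vessels, was at 0 UMIs in naïve endothelial cells of both lines and at 0.406 to 2.95 CPM after injury. A count of 0 allows up to 4.703 and 4.04 CPM in these naïve clusters at 3 counts, so a difference from the injured cells was not detectable at this depth. Mfsd2a, a lipid transporter that limits transcytosis, was at 174, 201 and 162 CPM in the NG2 line and at 272, 273 and 207 CPM in the Tbx18 line.

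The genes with profiles most like those of the members were found over 31 cluster-by-library profiles of the NG2 line and 16 of the Tbx18 line, which share libraries and depth, as Pearson's r of log2 of CPM plus 1. For Cldn5 the nearest were Adgrl4, Ly6c1 and Ptprb in the NG2 line (r of 0.97 to 0.96) and Ly6c1, Sox18 and Podxl in the Tbx18 line (r of 0.98 to 0.97), all known from endothelial cells. For Ocln they were Cmtm8, Kdr and Crybg3 (0.94 to 0.93), and Kdr, Cd34 and Tie1 (0.98 to 0.97). Cdh5 had Ccm2l, Sox18 and Gimap1, and Ramp2, Itm2a and Nebl, and Pecam1 had Icam2, Ccm2l and Degs2, and Grrp1, Sox18 and Pllp. For Esam they were Car4, Foxc1 and Zic2, and Afap1l2, Epas1 and Dysf, of which Foxc1 is a transcription factor known from mural cells. Tjp1 had Gk5, Gm49417 and Pwwp3a, and Sptbn1, Dennd5b and Rapgef4. F11r had Anxa3, Tapbp and Ehd4, and Pdgfb, Slfn5 and Scarb1, and Jam2 had Tmem44, Zmiz1 and Rnf144b, and Tdrp, Dnm3 and C130074G19Rik. Among the members themselves, Cdh5 and Pecam1 had an r of 0.95 in the NG2 line and Cldn5 and Pecam1 an r of 0.96 in the Tbx18 line, while Tjp1 and Pecam1 had r of 0.13 and 0.48.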

How the data were processed

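The authors aligned the reads to the mouse genome (GRCm38, mm10) with Cell Ranger (the submitters' processing notes name version 7.0.0), filtered cells and genes, and integrated and clustered the libraries in Seurat. The authors deposited raw UMI counts for each gene in each cell, every cell's cluster number in the naïve, NG2 and Tbx18 combinations, and the percent of mitochondrial transcripts, which was used here only in a filter. All deposited cells were kept. Neither the labels nor the methods mention doublets, and no caller was run. Cluster names are those of the study for the NG2 and Tbx18 combinations. Naïve clusters are given by number.

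Counts were summed by cluster and library, scaled by all UMIs of those cells, and given with exact Poisson intervals. Ratios have exact conditional binomial intervals and shares exact Clopper-Pearson intervals, all at 95%. With 1 library per group conditions were not tested against each other. Profiles under 20 cells were left out of the descriptions unless their cell number is given. A value of 0 was read against 3 counts. Cells were thinned to 1000 UMIs without replacement. All 9 members are described. Other junction genes are named where past 2-fold, with a few more as examples. Not all genes of that list whose highest cluster is not endothelial are named. The 3 genes with the highest Pearson r to each member are named, among genes with at least 50 CPM in a profile. The members, lists and comparisons were chosen with earlier results of these data known. Alternatives changed the scaling (TMM factors, totals without mitochondrial genes), the cells kept, the weight of each cell, the fold and the minimum CPM. Scripts were tested on simulated data. Promoters come from RefSeq GRCm38.p6 and gene positions from GENCODE M21, and the authors may have used another release. TMM factors came from edgeR 4.0.16 in R 4.3.3, and all else was computed in Python 3.11.15 (pandas 2.3.3, scipy 1.17.1, numpy 2.4.6, matplotlib 3.10.9).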

Additional observations from a re-analysis of the deposited data

Results flagged for a closer look

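In 4 cases the log2 ratio of a member had opposite signs in the NG2 and the Tbx18 line, with counting intervals that left out 0 in both, each line being 1 library per condition. The difference between the lines was not tested in any of them, and the naïve library of a line enters 2 of its contrasts. The 8 members that could be compared were looked at in every contrast within a line, and the rule was not applied to all genes. The share of all genes that would meet it is not known, so the 4 cases are listed and are not a result about these genes. Ocln had a log2 ratio of ischemic injury to naïve of -0.62 in NG2-tdT+ and 0.27 in Tbx18-tdT+ endothelial cells, and the latter was 0.09, with an interval that included 0, from naïve cells of clusters 10 and 13 alone. Tjp1 had log2 ratios of physical injury to naïve of 0.19 and -0.12, of which the latter ranged from -0.21 to 0.019 over its alternatives and changed sign with the mean over cells. It had log2 ratios of ischemic to physical injury of -0.27 and 0.11. F11r had log2 ratios of ischemic to physical injury of -0.43 and 0.11.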

How the results depend on the processing

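Each condition was 1 library, so leaving out a replicate could not be done, and the intervals limit counting error alone. No paired analysis was possible because each group has 1 library. Of 56 single log2 ratios, 6 moved beyond their interval with TMM factors, 7 with cells that pass the methods' filters, 18 with the mean over cells and none with totals without mitochondrial genes. No ratio past 1.5-fold changed its direction, while several smaller ratios did in at least 1 alternative. In Tbx18 physical injury to naïve, that of Tjp1 ranged from -0.21 to 0.019, that of Cdh5 from -0.089 to 0.51 and that of Jam2 from -0.13 to 0.70. Those of Cdh5, F11r and Tjp1 in NG2 ischemic injury to naïve were among the others that changed sign. With a 1.5-fold limit, 1 member was past it in NG2 ischemic injury against naïve, in Tbx18 physical and ischemic injury against naïve, and between the naïve lines. With the mean over cells of their own CPM, 1 member was past 2-fold in Tbx18 physical and ischemic injury against naïve (Cldn5, log2 ratios of 1.00 and 1.06) and between the naïve lines (F11r, 1.04). The share of all genes past 2-fold was not computed with this weighting, so these calls cannot be set against a background. With the same weighting the member medians for Tbx18 physical and ischemic injury against naïve were 0.68 and 0.75. These medians were 0.10 and 0.15 with naïve cells of clusters 10 and 13 alone, an alternative added after the data were seen, and 0.067 and 0.15 without cells with 3 or more UMIs of 5 pericyte genes. With no minimum CPM the share of all genes past 2-fold was 11.7% for physical injury against naïve, 13.3% for ischemic injury against naïve and 8.20% for ischemic against physical injury in the NG2 line, and 21.9%, 23.0% and 7.02% in the Tbx18 line. The Ocln log2 ratio of NG2 ischemic injury to naïve ranged from -0.75 to -0.50 over its alternatives and fell short of 1.5-fold with TMM factors and with the mean over cells. Without thinning or at 2000 UMIs, 47 of 48 shares of cells moved beyond their interval.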
